A study of Mus musculus with 99 samples.

Results

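The 10 genes described here encode transcription factors that pattern the limb and lie outside the Hox clusters: the T-box factors Tbx1, Tbx2, Tbx3, Tbx4 and Tbx15, the basic helix-loop-helix factors Twist1 and Twist2, the TALE homeodomain factors Meis1 and Meis2, and the paired-type homeodomain factor Pitx1. They are 10 of the 35870 genes in the deposited table and were taken by symbol. They had been picked with gastrocnemius set against quadriceps, and with their levels in spinal cord, in view. Those levels and differences are therefore given as a description with no test, while effects of age and exercise within a tissue, and differences of such effects between the muscles, were tested.

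Polyadenylated RNA was sequenced from gastrocnemius (the calf muscle), quadriceps (the front thigh muscle) and whole spinal cord of wild-type male C57BL/6 mice that had been perfused before dissection. Of the 3 groups, 1 was 10 months old and sedentary, 1 was 18 months old and sedentary, and 1 was 18 months old and exercised. Gastrocnemius and cord had 10, 10 and 13 libraries in these groups, in that order, and quadriceps had 10, 9 and 12, which makes 97. The labels do not say what the exercise was, nor whether libraries of a group came from separate animals, so p-values measure the spread between these libraries, which may be technical. The numbers in the titles did not cross the ages, so what they stand for and age cannot be told apart. Total counts ran from 29063006 to 62769274 per library. The tissues matched their defining markers: the muscle actin gene Acta1 had a median of 43475 TPM (the authors' values, scaled by gene length and library total) in gastrocnemius, 43419 TPM in quadriceps and 100.5 TPM in cord, and the motor neuron gene Chat a median of 0 TPM in both muscles and 29.8 TPM in cord.

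T-box proteins bind DNA through a shared T domain and act as activators or repressors. In the embryo, Pitx1 and Tbx4 mark the hindlimb and Tbx5 the forelimb, Meis1 and Meis2 mark the part of the limb bud nearest the trunk, Tbx2 and Tbx3 are expressed at its front and back margins, and Twist1 and Twist2 are expressed in its mesenchyme. In adult muscle, Tbx15 is known from glycolytic fibres, and Twist proteins are known as inhibitors of muscle differentiation. Tbx1 is best known for the muscles and vessels of the pharyngeal arches. In bulk tissue, fewer cells of a type and less RNA per cell cannot be told apart.

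Both exercised muscle libraries with the number 9.1 went against their tissue labels for Tbx1 and for most genes that separated the muscles. The library labelled gastrocnemius 9.1 had 20.1 TPM of Tbx1, while the other 12 exercised gastrocnemius libraries lay between 2.46 and 4.24 TPM. The library labelled quadriceps 9.1 had 3.73 TPM of Tbx1, while the other 11 exercised quadriceps libraries lay between 22.5 and 31.0 TPM. Genes outside the 10 gave the same picture. Of 48 other genes that separated the 20 sedentary gastrocnemius from the 19 sedentary quadriceps libraries completely, 46 lay nearer the quadriceps mean in the library labelled gastrocnemius 9.1 (95.8%, against 0 to 12.5% in the other 12), and 9 did so in the library labelled quadriceps 9.1 (18.8%, against 91.7 to 100% in the other 11). The 8 slow fibre markers went with the labels. They summed to 1922 TPM in gastrocnemius 9.1, above the quadriceps maximum of 1761 TPM. In quadriceps 9.1 they summed to 1252 TPM, below the gastrocnemius minimum of 1343 TPM. The 6 adipocyte markers, at 494 and 241 TPM, were the highest of exercised gastrocnemius and the lowest of exercised quadriceps. Whether these libraries were exchanged was not tested. The libraries stayed in the fits under their labels. Differences between exercised muscles are given with and without them, a choice made once the data had been seen.

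**Figure D1:**
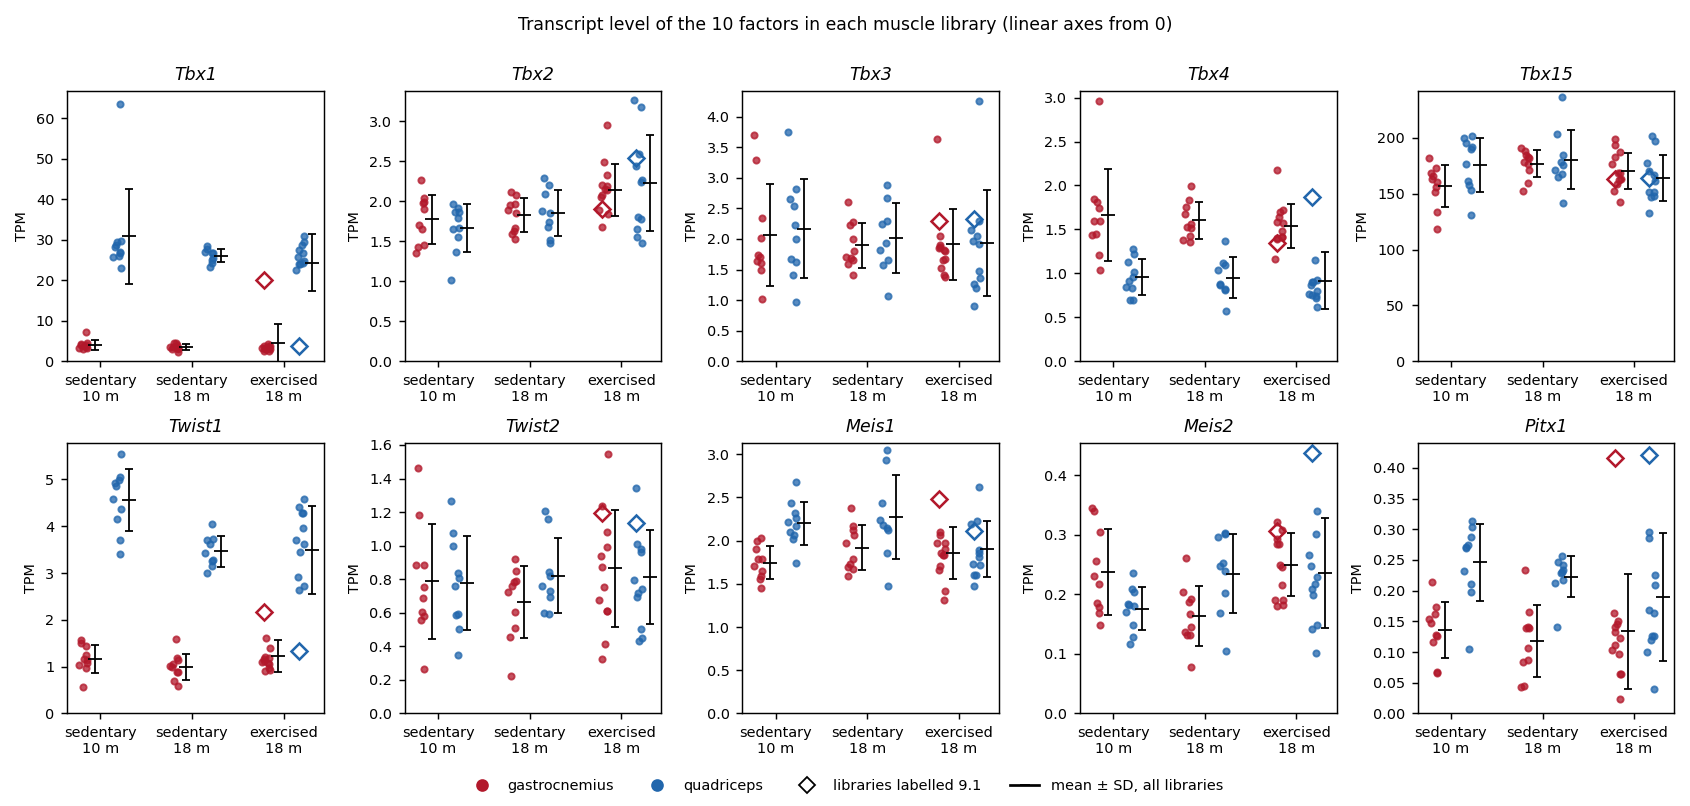
Deposited TPM of the 10 factors in every muscle library, 1 panel per gene with a linear axis from 0, gastrocnemius (red) left of quadriceps (blue) in each condition. Dots are libraries, diamonds the libraries labelled 9.1, and bars the mean ± SD of all libraries of the group; Tbx1 and Twist1 separate the muscles, with the diamonds on the other muscle's side for Tbx1.

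Tbx1 showed the widest difference between the muscles. Its gene (Entrez 21380) lies on the minus strand of chromosome 16, from 18580979 to 18590671 in GRCm38. At 10 months it ran from 3.15 to 7.25 TPM in gastrocnemius (median 3.81), against 23.0 to 63.7 TPM in quadriceps (median 27.5). At 18 months in sedentary mice it ran from 2.399 to 4.603 TPM in gastrocnemius (median 3.43), against 23.4 to 28.4 TPM in quadriceps (median 26.7). The groups did not overlap at either age. The fitted log2 difference, gastrocnemius minus quadriceps, was -3.02 ± 0.268 (SE) at 10 months, -3.01 ± 0.272 at 18 months in sedentary and -2.58 ± 0.232 in exercised mice. These correspond to 8.12-fold, 8.07-fold and 5.97-fold higher levels in quadriceps. Without the libraries labelled 9.1, the exercised difference was -3.19 ± 0.121, with 2.46 to 4.24 TPM in 12 gastrocnemius libraries against 22.5 to 31.0 TPM in 11 quadriceps libraries. The libraries labelled 9.1 also enter the SE of the sedentary differences, because all groups share the fit. Without them the sedentary differences were -3.02 ± 0.130 at 10 months and -3.01 ± 0.132 at 18 months.

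Twist1, whose product holds mesenchymal cells in an undifferentiated state, had the same direction. The gene (Entrez 22160) lies on the plus strand of chromosome 12, from 33957671 to 33959829. At 10 months it ran from 0.568 to 1.58 TPM in gastrocnemius (median 1.15), against 3.40 to 5.54 TPM in quadriceps (median 4.72). At 18 months in sedentary mice it ran from 0.579 to 1.59 TPM in gastrocnemius (median 0.9995), against 3.01 to 4.05 TPM in quadriceps (median 3.43). Every quadriceps library of these groups lay above every gastrocnemius library of the same age. The log2 difference was -2.08 ± 0.159 at 10 months, -1.91 ± 0.165 at 18 months and -1.67 ± 0.140 with exercise, or -1.87 ± 0.116 with exercise without the libraries labelled 9.1. Without them it ran from 0.916 to 1.61 TPM in gastrocnemius, against 2.63 to 4.58 TPM in quadriceps. In the libraries labelled 9.1 Twist1 stood at 2.17 TPM for gastrocnemius and 1.34 TPM for quadriceps.

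Tbx4, the hindlimb T-box gene, differed the other way. It lies on the plus strand of chromosome 11 (Entrez 21387, 85886422 to 85916097), 44473 bases beyond the end of Tbx2. At 10 months it ran from 1.04 to 2.96 TPM in gastrocnemius (median 1.59), against 0.697 to 1.28 TPM in quadriceps (median 0.937). At 18 months in sedentary mice it ran from 1.36 to 1.996 TPM in gastrocnemius (median 1.54), against 0.567 to 1.37 TPM in quadriceps (median 0.883). The groups overlapped at both ages. The log2 difference was 0.67 ± 0.124, 0.65 ± 0.127 and 0.59 ± 0.111 in the 3 conditions from young to exercised, and 0.71 ± 0.107 in exercised mice without the libraries labelled 9.1. Without them the exercised groups no longer overlapped, with 1.16 to 2.18 TPM in gastrocnemius against 0.621 to 1.15 TPM in quadriceps.

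Tbx1 and Twist1 are shown with Tbx4 by the 250 bases that precede their RefSeq starts (GRCm38.p6, 5′ to 3′ along the gene), because the first pair had high levels in the same muscle and Tbx4 in the other. The windows are chr16:18590672-18590921 (minus strand) and chr16:18588900-18589149 (minus strand, inside the annotated gene) for Tbx1, chr12:33957421-33957670 (plus strand) for Twist1 and chr11:85896515-85896764 (plus strand, inside the annotated gene) for Tbx4. Capitals mark E-boxes, CANNTG, the motif that Twist proteins and other basic helix-loop-helix factors bind.
Tbx1, outer start: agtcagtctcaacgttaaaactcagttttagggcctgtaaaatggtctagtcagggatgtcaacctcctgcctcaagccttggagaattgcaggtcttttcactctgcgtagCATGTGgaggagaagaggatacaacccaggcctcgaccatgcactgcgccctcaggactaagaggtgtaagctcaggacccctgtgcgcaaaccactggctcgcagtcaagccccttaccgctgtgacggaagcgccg
Tbx1, inner start: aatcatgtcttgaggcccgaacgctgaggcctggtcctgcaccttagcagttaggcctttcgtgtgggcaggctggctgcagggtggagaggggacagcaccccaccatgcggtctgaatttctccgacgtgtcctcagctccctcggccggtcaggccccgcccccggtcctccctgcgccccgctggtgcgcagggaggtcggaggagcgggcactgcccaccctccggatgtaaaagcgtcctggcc
Twist1: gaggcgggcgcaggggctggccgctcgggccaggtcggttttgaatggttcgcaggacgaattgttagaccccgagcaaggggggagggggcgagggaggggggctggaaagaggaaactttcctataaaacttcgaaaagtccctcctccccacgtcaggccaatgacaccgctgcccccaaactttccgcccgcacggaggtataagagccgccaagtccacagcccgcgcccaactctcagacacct
Tbx4: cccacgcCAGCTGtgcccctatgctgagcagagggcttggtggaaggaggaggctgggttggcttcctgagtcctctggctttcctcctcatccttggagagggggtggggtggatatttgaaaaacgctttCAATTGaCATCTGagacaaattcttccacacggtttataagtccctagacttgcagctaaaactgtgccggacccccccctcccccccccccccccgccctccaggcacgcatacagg
On either strand, E-boxes occurred 3 times in the Tbx4 window, 1 time in the outer Tbx1 window and not in the other 2 windows. Of the 32851 promoter windows of this length in the table, 66.2% held an E-box. The T-box half-site GGTGTGA (in 3.33% of windows), the Meis motif TGACAG (15.9%) and the Pitx motif TAATCC (6.25%) occurred in none of these 4 windows. No 2 of the searched matches overlapped. Of the 10 factors, 6 had a window in the table; the Twist2 window held 1 Meis motif and the Meis1 window 1 E-box.

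None of the other 7 factors separated the muscles in any condition, with or without the libraries labelled 9.1. Meis1, which marks the part of the limb nearest the trunk, was 1.75 ± 0.192 TPM in gastrocnemius against 2.2005 ± 0.252 TPM in quadriceps at 10 months (SD, n = 10 each). Its log2 difference was -0.45 ± 0.082 at 10 months, -0.35 ± 0.083 at 18 months and -0.20 ± 0.073 with exercise, or -0.25 ± 0.073 without the libraries labelled 9.1. Pitx1, the hindlimb selector that acts before Tbx4, was near the limit of detection, with 1 to 32 counts per muscle library. The 32 fell in gastrocnemius 9.1, while Pitx1 had 1 to 8 in the other 12 exercised gastrocnemius libraries. It had 0.135 ± 0.046 TPM in gastrocnemius against 0.247 ± 0.063 TPM in quadriceps at 10 months. Its log2 difference was -0.98 ± 0.288, -1.01 ± 0.303 and -0.57 ± 0.260 in the 3 conditions from young to exercised, and -0.79 ± 0.248 in exercised mice without the libraries labelled 9.1. In quadriceps Pitx1 thus had the higher level, unlike Tbx4.

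Tbx15 was by far the most abundant of the 10 in both muscles, with little difference between them. It ran from 118 to 199 TPM over all 33 gastrocnemius libraries (median 169), against 131 to 236 TPM over all 31 quadriceps libraries (median 170). Its log2 difference was -0.29 ± 0.071 at 10 months, -0.14 ± 0.073 at 18 months and -0.12 ± 0.063 with exercise, or -0.13 ± 0.065 without the libraries labelled 9.1. Tbx2 and Tbx3, transcriptional repressors of the limb margins, had medians of 1.96 and 1.80 TPM in gastrocnemius against 1.85 and 1.97 TPM in quadriceps. Their log2 differences lay between -0.22 and -0.03, and in exercised mice without the libraries labelled 9.1 they were -0.20 ± 0.105 for Tbx2 and -0.17 ± 0.174 for Tbx3. For Tbx2 the TPM medians were thus higher in gastrocnemius, while the fitted differences were negative. The exercised means of Tbx15, 170.6 TPM in gastrocnemius and 164.3 TPM in quadriceps, also went against its fitted sign. TPM and the fit scale libraries differently, so no direction is read from differences this small. The part of the scaling was not tested. Twist2, the paralog of Twist1, had medians of 0.755 TPM in gastrocnemius and 0.760 TPM in quadriceps, and log2 differences of -0.11 ± 0.245, -0.42 ± 0.254 and -0.06 ± 0.214 in the 3 conditions from young to exercised, and -0.08 ± 0.226 in exercised mice without the libraries labelled 9.1. The Twist paralogs thus differed in this: Twist1 separated the muscles at both ages in sedentary mice, while Twist2 ranged from 0.262 to 1.46 TPM in gastrocnemius and from 0.350 to 1.26 TPM in quadriceps at 10 months.

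Meis2 was low in muscle and was the only one of the 10 whose fitted difference changed sign between the sedentary ages. It was 0.238 ± 0.072 TPM in gastrocnemius against 0.176 ± 0.037 TPM in quadriceps at 10 months (SD, n = 10 each). At 18 months in sedentary mice it was 0.164 ± 0.050 TPM in gastrocnemius (n = 10) against 0.235 ± 0.067 TPM in quadriceps (n = 9). The log2 difference was 0.31 ± 0.172 at 10 months and -0.62 ± 0.177 at 18 months, and -0.05 ± 0.148 with exercise, or 0.00032 ± 0.146 without the libraries labelled 9.1. The groups overlapped at each of these, and gastrocnemius libraries held 9 to 64 counts of Meis2. The 64 fell in gastrocnemius 9.1, and the other 12 exercised gastrocnemius libraries held 20 to 46.

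**Figure D2:**
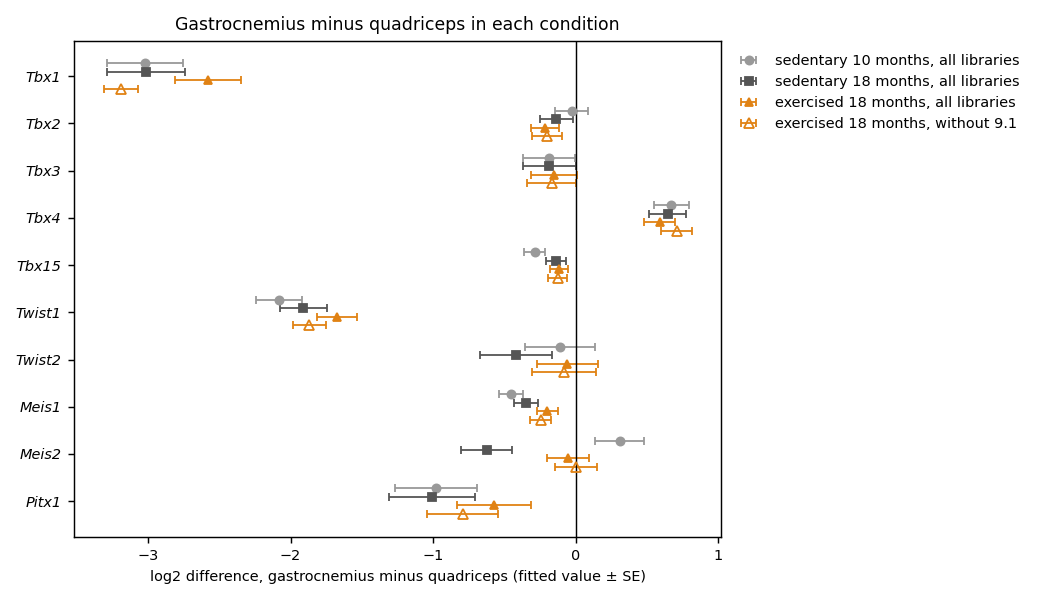
Fitted log2 difference, gastrocnemius minus quadriceps, with its SE (bars) for each of the 10 factors in the 3 conditions, and for exercised mice also without the libraries labelled 9.1 (open triangles). Tbx1 lies at -3.02, -3.01 and -2.58 and Twist1 at -2.08, -1.91 and -1.67 from young to exercised, Tbx4 between 0.59 and 0.67, and Meis2 at 0.31 and -0.62 in sedentary mice of 10 and 18 months.

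At 10 months the muscles did not overlap for 2 of the 10 factors, Tbx1 and Twist1, where 0.648% of all 15433 genes did not overlap. At 18 months in sedentary mice these were again 2 of 10, where 2.42% of all genes did not overlap. In exercised mice they were 0 of 10, where 0.013% of all genes did not overlap, and, without the libraries labelled 9.1, 3 of 10 (Tbx1, Twist1 and Tbx4), where 0.92% did not overlap. The factors were chosen on this contrast, so nothing is read from these shares. The number in a library's title occurs in both muscles for 31 pairs. Tbx1 and Twist1 were each higher in the quadriceps library in 30 of 31 pairs, with 9.1 as the exception, and Tbx4 was higher in the gastrocnemius library in 29 of 31.

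**Figure D3:**
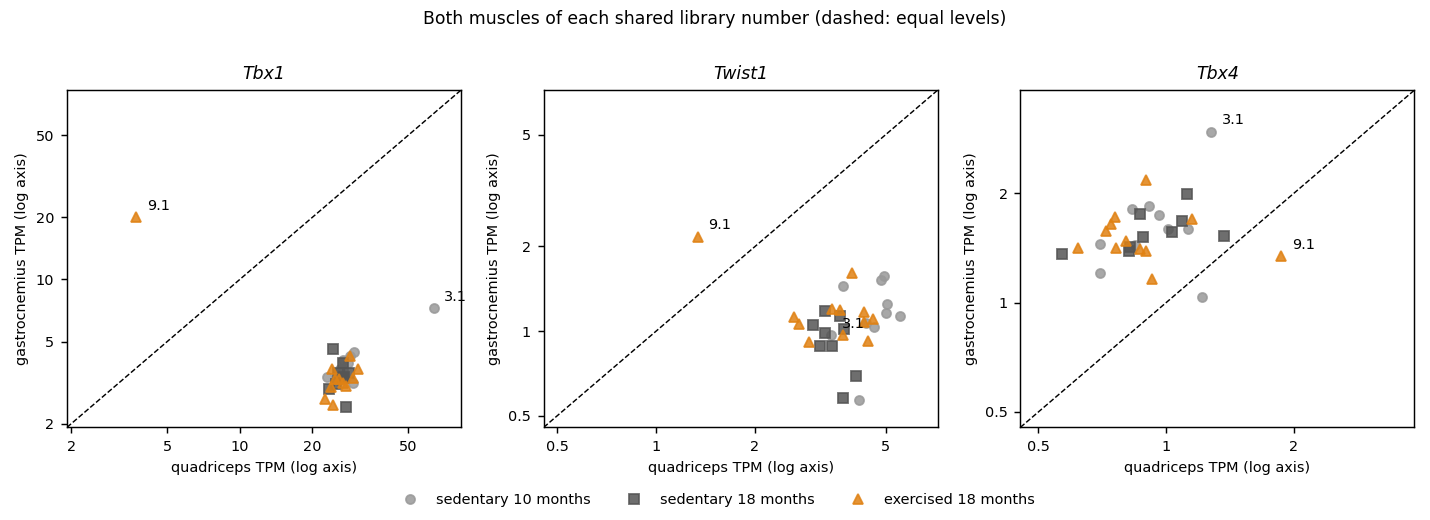
Gastrocnemius TPM (vertical) against quadriceps TPM (horizontal), both on log axes, for the 31 numbers shared by both muscles, with symbols for the condition and a dashed line of equal levels. Number 9.1 lies on the opposite side of the line from the cluster for all 3 genes, and number 3.1 has 7.25 and 63.7 TPM of Tbx1.

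Number 3.1, at 10 months, had high Tbx1 in both muscles: 7.25 TPM in gastrocnemius, where the other 9 libraries lay between 3.15 and 4.47 TPM, and 63.7 TPM in quadriceps, where the other 9 lay between 23.0 and 29.6 TPM. In these libraries the fibroblast markers summed to 293 TPM in gastrocnemius and 237 TPM in quadriceps and the tendon markers to 50.5 and 75.3 TPM, the lowest sums of each muscle. Low sums were not particular to connective tissue. The smooth muscle and pericyte markers (97.5 and 105.6 TPM) and the red cell markers (110 and 156 TPM) were also at their lowest there. The adipocyte markers, at 136 and 283 TPM, were not. The 6 dorsal root markers summed to 21.1 TPM in gastrocnemius 3.1 and 25.9 TPM in quadriceps 3.1, the highest of each muscle, where the medians were 5.18 and 6.19 TPM. The part of these in the Tbx1 values was not tested. The Tbx1 ratio between its muscles was within the range of the other pairs. Libraries 3.1 of both muscles stood apart from their tissue in an earlier analysis of these data. Without them and gastrocnemius 2.2, Tbx1 and Twist1 remained the 2 factors whose muscles did not overlap at 10 months, where 10.6% of all genes did not overlap.

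Markers of other cell types differed between the muscles too. The 8 slow fibre markers summed to 1726 ± 257 TPM over 33 gastrocnemius libraries and 1259 ± 244 TPM over 31 quadriceps libraries (SD). The 6 adipocyte markers summed to 71.3 to 494 TPM in gastrocnemius (median 141) and 87.8 to 819 TPM in quadriceps (median 330). The 7 tendon markers summed to 50.5 to 176 TPM in gastrocnemius (median 119) and 75.3 to 245 TPM in quadriceps (median 163), while the 9 fibroblast markers had medians of 616 and 575 TPM in these muscles. The libraries labelled 9.1 are included here under their labels. The adipocyte maximum of gastrocnemius and the tendon maxima of both muscles are theirs. All markers of these lists were detected. Their part in the differences of Tbx1, Twist1 and Tbx4 was not tested.

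Other T-box, TALE, Pitx, helix-loop-helix and limb bud genes were looked at as lists. At 10 months 0.648% of all 15433 genes did not overlap between the muscles. Among the 12 other T-box genes, 5 were tested in the fit of both muscles and 1, Tbx5, the forelimb gene, did not overlap at 10 months. It was 0.011 ± 0.013 TPM in gastrocnemius against 0.234 ± 0.095 TPM in quadriceps (SD, n = 10 each), with a log2 difference of -4.38 ± 0.572. Tbx18 and Mga followed at -0.34 and 0.27. Among the 17 other TALE and Pitx genes, 11 were tested, and Pitx3 and Irx3 had log2 differences of -0.78 and -0.40. Of the 11 helix-loop-helix partners and inhibitors of Twist, 8 were tested and none was without overlap, and the largest log2 differences were those of Tcf15 (-0.28), Id3 (-0.14) and Id1 (-0.13).

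Among the 43 limb bud genes, 28 were tested and 2 did not overlap at 10 months, where 0.648% of all genes did not. At 18 months in sedentary mice the same 2, higher in gastrocnemius, and 1 other, higher in quadriceps, did not overlap. There 2.42% of all genes did not. Aldh1a2, which makes retinoic acid, was 6.88 ± 1.37 TPM in gastrocnemius against 1.45 ± 0.522 TPM in quadriceps (SD, n = 10 each), a log2 difference of 2.11 ± 0.243. Isl1, a LIM homeodomain gene of the early hindlimb field, was 0.183 ± 0.076 TPM in gastrocnemius and was listed at 0 in all 10 quadriceps libraries. Isl1 also marks motor neurons. The motor neuron gene Chat had a median of 0 TPM in both muscles. The part of such cells in the Isl1 values was not tested. Lmx1b, a dorsal limb gene, had a log2 difference of -1.12 ± 0.322. The libraries labelled 9.1 lay on the other muscle's side for these genes as well: Isl1 was listed at 0 in gastrocnemius 9.1 and at 0.539 TPM in quadriceps 9.1, and Tbx5 was 0.366 TPM in gastrocnemius 9.1 and 0.034 TPM in quadriceps 9.1. The list medians of the log2 difference at 10 months were -0.16 for T-box, -0.03 for TALE and Pitx, -0.09 for helix-loop-helix and -0.04 for limb bud genes, against -0.24 for the 10 factors and 0.0034 for all 15433 genes.

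Spinal cord had its own order of the 10 factors. Meis2 led with a median of 28.2 TPM (20.2 to 30.2 over 33 libraries), followed by Meis1 with 12.8 TPM (10.6 to 14.2), Tbx1 with 7.33 TPM (4.63 to 10.165) and Tbx2 with 4.98 TPM (3.08 to 7.99). Tbx3 had a median of 2.69 TPM, Twist1 1.60, Twist2 0.768, Tbx15 0.675, Tbx4 0.159 and Pitx1 0.072 TPM. Of neighbours in this order, Meis2 and Meis1 did not overlap, nor did Meis1 and Tbx1, while each later pair overlapped. In gastrocnemius the order was Tbx15, Tbx1, Tbx2, Meis1, Tbx3, Tbx4, Twist1, Twist2, Meis2 and Pitx1, and of its neighbours only Tbx15 and Tbx1 did not overlap. In quadriceps it was Tbx15, Tbx1, Twist1, Meis1, Tbx3, Tbx2, Tbx4, Twist2, Pitx1 and Meis2, and again only Tbx15 and Tbx1 did not overlap with all libraries in.

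Meis1 and Meis2 were higher in every cord library than in any muscle library. The mean of Meis2 was 126-fold higher in cord than in gastrocnemius and 128-fold higher than in quadriceps, and that of Meis1 6.90-fold and 6.04-fold higher. Tbx15 and Tbx4 were lower in every cord library than in any muscle library. The mean of Tbx15 was 230-fold higher in gastrocnemius and 236-fold higher in quadriceps than in cord, and that of Tbx4 10.0-fold and 5.89-fold higher. By mean TPM, Tbx1 in cord lay between the muscles, at 1.78-fold the mean of gastrocnemius and 0.272-fold that of quadriceps. All libraries are in these means, and the highest gastrocnemius value of Tbx1 was 20.1 TPM against a median of 3.51 TPM. By rank Tbx1 was lowest in cord, with 11136 genes of higher median, against 8824 in gastrocnemius and 2837 in quadriceps. Meis1 kept its direction by rank, with 9255 such genes in cord, 10536 in gastrocnemius and 9850 in quadriceps. TPM are scaled by library total, so these ratios also depend on the other genes of each tissue. Pitx1 had 0 to 6 counts per cord library and was listed at 0 in 3 of 33.

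**Figure D4:**
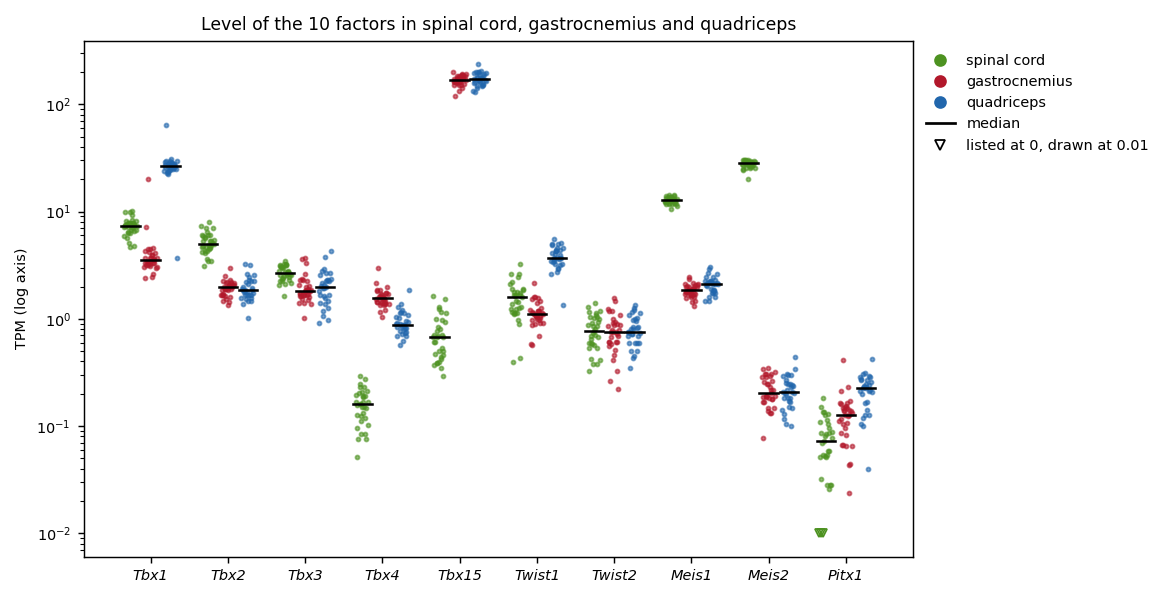
TPM on a log axis of the 10 factors in spinal cord (green), gastrocnemius (red) and quadriceps (blue), with a dot per library and a bar at the median. Meis1 and Meis2 lie highest in cord and Tbx15 and Tbx4 lowest there, and the 3 cord libraries in which Pitx1 is listed at 0 are drawn as triangles at 0.01.

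With age, Meis2 fell in sedentary cord. It ran from 20.2 to 29.4 TPM at 18 months (median 27.5), against 27.1 to 30.2 TPM at 10 months (median 29.2), and 9 of 10 libraries at 18 months lay below the 10-month median. The groups overlapped. The log2 fold change was -0.11 ± 0.033 (SE; edgeR quasi-likelihood test, Benjamini-Hochberg adjusted p = 0.0465). It was the only 1 of the 9 factors tested in cord to pass, where 5.35% of 18956 genes passed in either direction and 2.53% were lower. The call was lost without cord libraries 5.2 and 6.1, which stood apart (log2 fold change -0.07, adjusted p = 0.182), and in 21 of 33 fits that left out 1 library. Library 6.1 alone had 20.2 TPM of Meis2, while the other 9 lay between 24.5 and 29.4 TPM, and without it the adjusted p was 0.115. In library 6.1 the 5 red cell markers summed to 43773 TPM, where the median of its group was 2712 TPM, and the 6 neuron markers to 3003 TPM, where the median of its group was 3586 TPM. Over the whole groups, the neuron markers summed to 3453 ± 324 TPM at 18 months and 3799.8 ± 138 TPM at 10 months (SD, n = 10 each), and the 4 motor neuron markers to 68.3 ± 10.7 TPM at 18 months and 80.0 ± 8.53 TPM at 10 months. The part of these markers in the Meis2 values was not tested.

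The other factors tested in ageing cord did not pass with edgeR. Tbx2 was 5.65 ± 0.969 TPM at 18 months and 4.55 ± 0.846 TPM at 10 months (SD, n = 10 each). Its log2 fold change was 0.34 ± 0.129 (edgeR adjusted p = 0.0961), and 9 of 10 libraries lay above the 10-month median. Tbx3 was 2.54 ± 0.369 TPM at 18 months and 3.01 ± 0.319 TPM at 10 months, a log2 fold change of -0.23 ± 0.090 (edgeR adjusted p = 0.110), and 9 of 10 libraries lay below the 10-month median. Both passed with limma's voom and quality weights (adjusted p = 0.0443 for Tbx2 and 0.0379 for Tbx3). Twist2, Tbx4, Twist1, Tbx15, Tbx1 and Meis1 had log2 fold changes of 0.43, 0.32, 0.30, 0.29, 0.14 and -0.02. The median of the 9 factors was 0.29, against 0.01 over all genes. Of the listed genes that are not among the 10, only Meox1, a homeobox gene of the somites and limb muscle precursors, passed, with 4.47 ± 0.625 TPM at 18 months against 3.79 ± 0.406 TPM at 10 months and a log2 fold change of 0.26 ± 0.080 (edgeR adjusted p = 0.0474).

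In gastrocnemius, 0 of 9 factors tested passed with age, where 0.153% of 15027 genes did. At an unadjusted p under 0.05, 1479 genes passed with edgeR. DESeq2 called 0 of the factors and limma 1. The largest change was that of Meis2, with 0.078 to 0.261 TPM at 18 months (median 0.157) against 0.148 to 0.346 TPM at 10 months (median 0.225). Its log2 fold change was -0.55 ± 0.169 (edgeR adjusted p = 0.213). It passed with limma's voom and quality weights, at -0.68 on the log2 scale (adjusted p = 0.0158). Twist2, Twist1 and Tbx1 had log2 fold changes of -0.26, -0.25 and -0.23, and Tbx15 one of 0.15.

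In quadriceps, 0 of 10 passed with age, where 0.352% of 14790 genes did, and 1802 genes had an unadjusted p under 0.05 with edgeR. DESeq2 called 0 of the factors and limma 1. Twist1 was 3.47 ± 0.332 TPM at 18 months (n = 9) and 4.56 ± 0.658 TPM at 10 months (SD, n = 10). All 9 libraries at 18 months lay below the 10-month median, though the groups overlapped. The log2 fold change was -0.42 ± 0.146 (edgeR adjusted p = 0.221), and it was -0.42 ± 0.102 (edgeR adjusted p = 0.0533) without the libraries labelled 9.1, which enter this fit through the spread of the exercised group. It passed with limma's voom and quality weights (log2 fold change -0.50, adjusted p = 0.00322). Meis2 had a log2 fold change of 0.38 ± 0.179 (edgeR adjusted p = 0.394), opposite in sign to gastrocnemius. The difference of its ageing effects, gastrocnemius minus quadriceps, was -0.93 ± 0.246 and did not pass over all genes (edgeR adjusted p = 0.99996, unadjusted p = 0.000339). In that comparison 0 of 10 factors passed, where 0.0% of 15433 genes did, with 232 genes at an unadjusted p under 0.05.

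With exercise at 18 months, 0 of 9 factors passed in gastrocnemius, where 0.106% of genes did, and 2051 genes had an unadjusted p under 0.05. Meis2 came closest. It ran from 0.180 to 0.321 TPM in exercised mice (median 0.249), against 0.078 to 0.261 TPM in sedentary mice (median 0.157), and 13 of 13 exercised libraries lay above the sedentary median. The log2 fold change was 0.63 ± 0.159 (edgeR adjusted p = 0.0674), or 0.60 ± 0.162 (edgeR adjusted p = 0.127) without the libraries labelled 9.1. It passed with DESeq2 (0.64, adjusted p = 0.0207), with limma's voom and quality weights (0.68, adjusted p = 0.0162), with only the 2 groups fitted (edgeR adjusted p = 0.0383) and without gastrocnemius 2.2 and 3.1 (edgeR adjusted p = 0.0180). The sedentary 18-month libraries are shared by the ageing and exercise comparisons of Meis2, whose signs were opposite. Tbx1 had a log2 fold change of 0.42 ± 0.266 with all libraries and -0.08 ± 0.122 without the libraries labelled 9.1 (edgeR adjusted p = 0.510 and 0.873), so its sign turned without gastrocnemius 9.1.

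In quadriceps, 0 of 10 passed with exercise, where 0.757% of genes did, and 1692 genes had an unadjusted p under 0.05 with edgeR. DESeq2 and limma also called 0 of the factors. Tbx2 had the largest change, with 2.23 ± 0.602 TPM in exercised mice (n = 12) and 1.86 ± 0.288 TPM in sedentary mice (SD, n = 9), a log2 fold change of 0.32 ± 0.119 (edgeR adjusted p = 0.248). In gastrocnemius Tbx2 was 2.14 ± 0.324 TPM in exercised mice (n = 13) and 1.83 ± 0.208 TPM in sedentary mice (n = 10), a log2 fold change of 0.25 ± 0.098 (edgeR adjusted p = 0.258). In cord, 0 of 9 factors passed with exercise, where 0.0% of 18956 genes did, and 2565 genes had an unadjusted p under 0.05. DESeq2 and limma also called 0 genes there. For the difference of exercise effects between the muscles, 0 of 10 factors passed with edgeR, where 0.0% of 15433 genes did and 357 had an unadjusted p under 0.05. DESeq2 and limma also called 0 genes for either difference between the muscles. The widest of these differences, gastrocnemius minus quadriceps, was that of Meis2, 0.57 ± 0.230 (edgeR adjusted p = 0.9998). Of the other listed T-box, TALE, Pitx, helix-loop-helix and limb bud genes, none passed with age or exercise in either muscle or with exercise in cord.

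**Figure D5:**
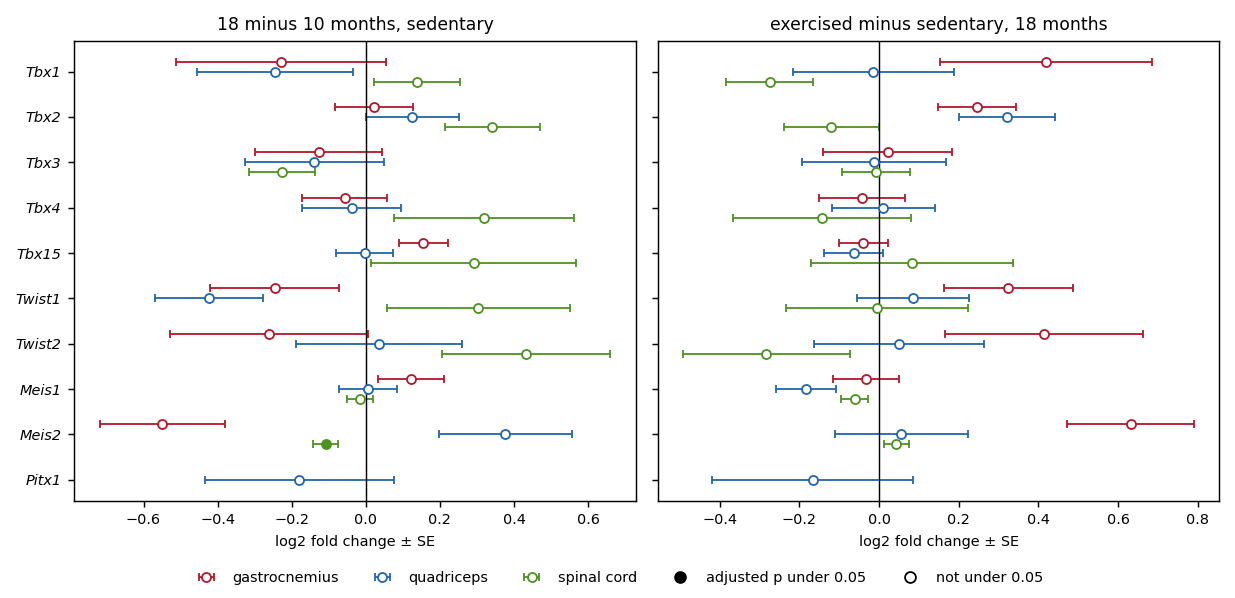
Log2 fold change ± SE of the factors tested in each tissue, for 18 minus 10 months in sedentary mice (left) and exercised minus sedentary at 18 months (right). Only Meis2 in ageing cord, at -0.11, is filled as passing an adjusted p of 0.05; Pitx1 was tested in quadriceps only.

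Likeness to other genes was described over the 64 muscle libraries by Pearson's r of log2 CPM (counts scaled to library size), with all libraries under their labels. Such values mix the difference between muscles with variation within them, and they carry no test. Tbx1 was most like Cyp4f39 (r = 0.944), Twist1 (0.942) and Katnal2 (0.941), and Twist1 most like Tbx1, Lrtm2 (0.917) and Gm33543 (0.906). Once each library was set against the mean of its muscle and condition, and without the libraries labelled 9.1, r between Tbx1 and Twist1 was 0.032 over 62 libraries, and 0.295 over 59 without gastrocnemius 2.2 and 3.1 and quadriceps 3.1. Tbx4 was most like Ppp1r3d (0.825), Hotair (0.804), a long noncoding RNA transcribed within the HoxC cluster, and the Hox gene Hoxa11 (0.799). Tbx15 was most like Jph2 (0.790), Ankrd40 (0.752) and Fn3k (0.749). Tbx2 was most like Pear1 (0.771), the pericyte receptor gene Pdgfrb (0.702) and the endothelial gene Cldn5 (0.699). Tbx3 was most like Tcim (0.778), Id3 (0.714) and Klf4 (0.683), and Meis1 most like Sim1 (0.758), Pappa2 (0.746) and Myl10 (0.723). Twist2, Meis2 and Pitx1, with few counts, had r of at most 0.647, 0.579 and 0.703 with any gene: Clec3b, Serpinf1 and S100a6 for Twist2, Kcnj15 and Lrp1 for Meis2, and Ccdc3, Rarres2 and Fundc1 for Pitx1.

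Within cord, some of the factors varied with markers of connective tissue. Over 33 cord libraries, each set against the mean of its group, Twist1 had r = 0.790 with the mean of the 9 fibroblast markers and 0.777 with that of the 7 meningeal markers. Tbx2 had r = 0.783 and 0.666 with these. Tbx1 and Meis2 had r = -0.636 with each other, and Meis2 had r = -0.320 with the fibroblast and -0.445 with the meningeal markers. Without cord libraries 5.2 and 6.1, r with the fibroblast mean was 0.778 for Twist1 and 0.800 for Tbx2 over 31 libraries. Meis2 then had r = -0.489 with the fibroblast and -0.639 with the meningeal markers. Tbx1 and Meis2 then had r = -0.504 with each other. In muscle, over 62 libraries without those labelled 9.1, r with the fibroblast mean was -0.656 for Tbx1, 0.542 for Tbx15, 0.503 for Twist2, 0.431 for Meis2, 0.421 for Twist1 and 0.116 for Tbx2. Without gastrocnemius 2.2 and 3.1 and quadriceps 3.1 as well, over 59 libraries, these were -0.335 for Tbx1, -0.197 for Tbx15, 0.279 for Twist2, 0.316 for Meis2, 0.279 for Twist1 and -0.021 for Tbx2, so the sign turned for Tbx15 and Tbx2. It also turned for Tbx4 (-0.203 to 0.196), Pitx1 (0.157 to -0.070) and Meis1 (0.034 to -0.066), while Tbx3 went from 0.165 to 0.043. Libraries of a tissue share its dissection, so these values are given with no test. The fibroblast markers summed to 224 to 428 TPM in sedentary cord at 18 months (median 367), against 142 to 521 TPM at 10 months (median 371).

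The counts of some factors may hold reads of neighbours, since whether strand was used in counting is not given in the sources used here. In GENCODE M21, 1477 of the 3174 exon bases of Twist2 are shared with the antisense gene Gm29100. Meis1 shares 896 of 10532 exon bases with the antisense gene Gm16140 and 1029 with Gm37818, a model on its own strand. Pitx1 shares 165 of 2656 with the antisense gene Gm47071 and 108 with Gm28760, and Tbx3 shares 115 of 6624 with Tbx3os1. Exons of Tbx1, Tbx2, Tbx4, Tbx15, Twist1 and Meis2 share no base with another gene of that annotation. The gene lengths given with the counts differ from these exon totals, at 1335 bases for Twist2 and 5211 for Meis1. The shares above are thus not shares of the counted bases. The remaining genes lie on chromosome 11 (Tbx2, Entrez 21385, 85832551 to 85841948; Meis1, Entrez 17268, 18879817 to 19018985), chromosome 5 (Tbx3, Entrez 21386, 119670669 to 119684724), chromosome 3 (Tbx15, Entrez 21384, 99240381 to 99354259), chromosome 1 (Twist2, Entrez 13345, 91801461 to 91848028), chromosome 2 (Meis2, Entrez 17536, 115863064 to 116065839) and chromosome 13 (Pitx1, Entrez 18740, 55825051 to 55836192).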

How the data were processed

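Per the submitters' processing notes, the authors used STAR 2.5.2b and the build GRCm38.p5. Which program counted reads, and whether by strand, is not given in the sources used here. Raw whole-number counts and TPM were deposited for each Entrez gene, and the deposited TPM equal those computed from these counts and gene lengths to within 0.0005. Of 99 labelled samples, 97 had columns; quadriceps 10.4 (sedentary, 18 months) and 10.2 (exercised) were not analysed here, so fits planned on 99 samples held 97. Rows without a symbol held at most 0.0167% of a library's counts.

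Counts were fitted per tissue with all 3 groups by the quasi-likelihood test of edgeR 4.0.16 (R 4.3.3), with TMM factors and filterByExpr (minimum count 10, minimum total count 15). Both muscles shared 1 fit for differences between them. Genes were called at a two-sided p under 0.05 after Benjamini-Hochberg adjustment over every gene of the fit. SE came from the F statistic. The fit was tested on simulated counts of independent libraries with a single dispersion, with no pairs and no libraries that stood apart. Only genes with higher counts were changed there, so the simulation does not bear on factors with few counts. Of the 10 genes, Pitx1 did not pass the filter in gastrocnemius or cord. The 10 genes and all lists were chosen with earlier results of these data known. Named beside them were up to 4 called genes of each list per comparison by p, the 3 largest differences between muscles at 10 months, and the 3 genes of highest r for each; some genes that this rule names are not reported here. Values were read per library from the deposited TPM, which have no fitted error. Total counts of 29063006 to 62769274 limit precision for Pitx1, Twist2, muscle Meis2 and cord Tbx4 in particular, which had few counts. Alternatives were DESeq2 1.42.0, limma 3.58.1 (voom with quality weights), RLE factors, no filter, only the 2 groups compared, a block on the number, libraries left out singly (with the dispersion trend and genes of the full fit) libraries that stood apart in an earlier analysis left out (gastrocnemius 2.2 and 3.1, quadriceps 3.1, cord 5.2 and 6.1) and, added after the data were seen, the muscle libraries labelled 9.1 left out.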

Additional observations from a re-analysis of the deposited data

Results flagged for a closer look

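Each factor was looked at in each sedentary group of 9 or 10 libraries. In 6 of these 60 sets, the most extreme library was farther from the rest than a Dixon test at 95% allows. Chance gives about 1 in 20 for independent sets. Library 3.1 was flagged more than once, so the sets are not independent and nothing is read from the rate. The exercised groups, of 12 or 13 libraries, were not looked at in this way. At 10 months, library 3.1 had 7.25 TPM of Tbx1 in gastrocnemius (others 3.15 to 4.47), 63.7 TPM of Tbx1 in quadriceps (others 23.0 to 29.6) and 2.96 TPM of Tbx4 in gastrocnemius (others 1.04 to 1.85). The fibroblast markers summed to 293 TPM in gastrocnemius 3.1 and 237 TPM in quadriceps 3.1, the lowest of each muscle. The red cell sums and the smooth muscle and pericyte sums were also the lowest there. In sedentary 18-month cord, library 4.3 had 1.52 TPM of Tbx15 (others 0.423 to 0.975); in that library the 5 skeletal muscle markers summed to 763 TPM, the highest of its group, whose median was 269 TPM. In the same group, library 6.1 had 20.2 TPM of Meis2 (others 24.5 to 29.4). In sedentary 18-month quadriceps, library 6.2 had 0.140 TPM of Pitx1 (others 0.212 to 0.257), which rests on 7 counts.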

How the results depend on the processing

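Under the alternatives the fold change of Meis2 in ageing cord, the only one of the 10 factors that had passed, kept its sign. Without the libraries labelled 9.1 other signs turned. These were that of Tbx1 with exercise in gastrocnemius, which had not passed, and that of the exercised Meis2 difference between muscles, which had no test. The number of factors called moved as follows. In gastrocnemius it was 1 (Meis2) with limma for ageing, and 1 (Meis2) with DESeq2, with limma, with only the 2 groups and without libraries that stood apart for exercise, against 0; leaving out 1 library gave 0 to 1 for exercise. In quadriceps ageing it was 1 (Twist1) with limma. In cord ageing it was 3 with limma and 0 with no filter, with only the 2 groups and without 5.2 and 6.1, against 1 (Meis2); leaving out 1 library gave 0 to 2. Without the libraries labelled 9.1, 3 factors did not overlap between exercised muscles, against 0. All genes called ran from 16 to 481 (23) and 10 to 1067 (16) in gastrocnemius ageing and exercise, 17 to 833 (52) and 78 to 634 (112) in quadriceps, and 252 to 2260 (1015) in cord ageing. The causes were not tested. Numbers shared by both muscles correlated in their deviations by -0.196 to 0.877 (median 0.224), 28 of 31 above 0.1, and 21 gastrocnemius libraries were most like their own number; with a replicate block, 0 factors were called in either difference between muscles. Few counts limit what can be said of Pitx1 in any tissue.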
